A study of Mus musculus with 8 samples.

Results

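Ctsa, Ctsb, Ctsc, Ctsd, Ctsh, Ctsk, Ctsl, Ctss and Ctsz, which encode lysosomal cathepsins, and the related protease gene Lgmn were followed in lung interstitial macrophages labelled as lacking or keeping Tgfbr2, the gene of the type II TGF-β receptor. They are 10 of the 22597 genes of the deposited table, picked by name, and all 10 were among the 12750 genes that passed a filter on low counts. The libraries labelled knockout (Tgfbr2_KO, KO 1 to 4) came from macrophages of CD45.1/CD45.2 IMDTR recipients given CD45.2 Lyz2Cre Tgfbr2fl/fl bone marrow. The control libraries (WT 1 to 4) came from the same kind of recipient given CD45.2 Tgfbr2fl/fl marrow without Cre. All recipients were irradiated with the thorax shielded, carried a Cx3cr1-driven diphtheria toxin receptor per the labels, and received 50 ng of toxin 1 month after the transplant, and macrophages were sorted 10 days later. Thorax shielding leaves host cells of the lung in place, and the labels do not say whether donor and host macrophages were sorted apart. The mice were female C57BL/6, with an age of 12 to 16 weeks in one label and of 18 weeks at irradiation in another. Lyz2 drives Cre in myeloid cells at large and not in interstitial macrophages alone, and since only Tgfbr2_KO donors carried it, effects of Cre and loss of the receptor cannot be told apart. The labels do not tie libraries to single mice, so p-values here reflect the spread among libraries, part of which may be technical.

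Cathepsins are proteases that digest proteins inside lysosomes. Most belong to the papain family of cysteine proteases, whereas cathepsin D is an aspartic protease, cathepsin A a serine carboxypeptidase and legumain a cysteine protease of another family that cuts after asparagine. They are made as inactive precursors, tagged with mannose 6-phosphate, carried to the lysosome by mannose 6-phosphate receptors and activated by cutting, and those of the papain type are held in check by cystatins. In macrophages they break down engulfed cells and matrix, and cathepsin S and legumain also trim antigens and the invariant chain of MHC class II.

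The promoters of 3 members are shown because these genes behaved differently below: Ctss had the largest difference between genotypes, Ctsd also differed, and Ctsa did not pass in any of the 3 genotype fits. The windows run from 250 bases before to 50 bases after a start site, on the strand of the gene, and were taken from RefSeq (GRCm38.p6). Capitals mark CACGTG, the E-box core of the element through which TFEB-type factors act on lysosomal genes, and GAGGAA, the core bound by the macrophage factor PU.1, each searched on both strands.
Ctss chr3:95526536-95526835 (+ strand): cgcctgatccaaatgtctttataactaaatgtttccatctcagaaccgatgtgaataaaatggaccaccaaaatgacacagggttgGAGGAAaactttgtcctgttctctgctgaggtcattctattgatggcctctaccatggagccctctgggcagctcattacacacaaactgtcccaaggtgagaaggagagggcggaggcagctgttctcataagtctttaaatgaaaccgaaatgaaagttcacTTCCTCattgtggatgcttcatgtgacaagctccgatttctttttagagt
Ctsd chr7:142387778-142388077 (- strand): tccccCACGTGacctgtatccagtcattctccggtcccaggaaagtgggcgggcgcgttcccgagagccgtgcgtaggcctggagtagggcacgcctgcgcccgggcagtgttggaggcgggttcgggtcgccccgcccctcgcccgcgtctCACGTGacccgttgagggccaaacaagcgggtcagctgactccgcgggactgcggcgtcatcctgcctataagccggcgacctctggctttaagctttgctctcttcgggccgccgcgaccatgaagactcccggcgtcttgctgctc
Ctsa chr2:164833523-164833822 (+ strand): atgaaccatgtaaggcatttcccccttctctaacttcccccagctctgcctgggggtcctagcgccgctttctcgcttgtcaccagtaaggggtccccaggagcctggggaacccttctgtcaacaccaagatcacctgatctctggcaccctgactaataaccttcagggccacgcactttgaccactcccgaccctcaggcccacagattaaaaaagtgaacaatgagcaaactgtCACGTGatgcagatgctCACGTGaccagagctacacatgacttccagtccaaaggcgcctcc
CACGTG was found in 2 places in the Ctsd window and in 2 places in this Ctsa window, and in neither the Ctss window nor those of Ctsc, Ctsk and Ctsz. It was in 1 place in the Ctsl window and in 1 of the Lgmn windows, and the other Ctsa window, chr2:164832622-164832921, which spans the annotated start of the gene, held none. GAGGAA was found in 2 places each in the windows of Ctss, Ctsc and Ctsk. Of all 32851 promoter windows in RefSeq's table, 7.15% held CACGTG and 28.3% held GAGGAA. The longer palindrome TCACGTGA, which contains CACGTG, was in 0.974% of all windows and was found in 2 places in the Ctsa window and in 1 place in that of Ctsd. CAGACA, a Smad-binding sequence, was present in 21.0% of all windows and in those of Ctsk and Lgmn, and the AP-1 sequence TGANTCA, present in 7.81% of all windows, was in none of the 10 windows that the 8 matched members (all but Ctsb and Ctsh) had. These matches describe letters in a window and not binding.

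The libraries held 15597310 (WT 1) to 37654133 (WT 4) estimated counts, and 3 counts were 0.0844 to 0.177 CPM, the count as a share of library size after scaling with the trimmed mean of M values (TMM). Tgfbr2 itself (ENSMUSG00000032440) was at 424, 576, 529 and 539 CPM in KO 1 to 4, against 548, 474, 546 and 542 CPM in WT 1 to 4, and the pooled fit gave -0.03 on the log2 scale (edgeR adjusted p = 1.00). It was thus not lower in the libraries labelled Tgfbr2_KO at the level of the whole gene, which includes exons that Cre may leave in place and so does not check the deletion. Tgfbr2_KO and KO stand for the library labelled so throughout. KO 1, WT 1 and WT 2, called lung-rich here, held far more lung transcripts than the other 5 libraries, a split made from the data and not one of the study's groups. The 10 epithelial markers summed to 5488 CPM in KO 1 and to 3469 and 3050 CPM in WT 1 and WT 2, against 143 to 203 CPM in KO 2 to 4 and 222 and 221 CPM in WT 3 and WT 4. The 10 macrophage markers, which include Csf1r, Adgre1 (F4/80) and Cd68, were present in every library. They summed to 6618 CPM in KO 1 against 9586 and 10042 CPM in WT 1 and WT 2, and to 13902 to 14305 CPM in KO 2 to 4 against 13621 and 13805 CPM in WT 3 and WT 4. KO 1 had the lowest macrophage marker level of the 8 libraries. The 10 endothelial markers summed to 4172 CPM in KO 1 and 2744 and 2144 CPM in WT 1 and WT 2, against 159 to 191 CPM in KO 2 to 4 and 229 CPM in both WT 3 and WT 4, and fibroblast and lymphocyte markers were likewise higher in the lung-rich libraries. In such bulk RNA, fewer macrophages and less of a transcript per macrophage cannot be told apart.

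Within each genotype all 10 members were lower in the lung-rich libraries, as was the macrophage marker sum. The share of all genes lower there was not counted, so this is not shown to be particular to the members. None of the 10 separated the genotypes when all 8 libraries were pooled. Together the members held 0.734%, 1.32%, 1.31% and 1.30% of all counts in KO 1 to 4, against 0.871%, 1.03%, 1.61% and 1.63% in WT 1 to 4. Per kilobase of annotated exon, Ctss was the highest with a mean of 1859 CPM per kb over the 8 libraries, followed by Ctsb at 601, Lgmn at 506, Ctsd at 489, Ctsz at 456, Ctsc at 301, Ctsa at 169, Ctsh at 123, Ctsl at 30.3 and Ctsk at 14.7 CPM per kb. Ctsb, Lgmn, Ctsd and Ctsz changed places between libraries, whereas the other neighbours in this order kept it in all 8. Salmon's own transcript lengths were not used here, so this order rests on the union of all annotated exons. In the fit with genotype alone, 0 of the 10 rose and 0 fell (edgeR quasi-likelihood test, Benjamini-Hochberg adjusted over 12750 genes), 0 had an unadjusted p under 0.05, and DESeq2 and limma voom also called 0. The pooled log2 fold changes ran from -0.84 for Ctss to 0.39 for Ctsb. Of all genes tested, 0.196% were called higher and 0.102% lower in that fit. Over the 8 libraries the levels of all 10 members overlapped between genotypes, as they did for all genes but the 4.19% that were higher and the 2.71% that were lower without overlap.

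**Figure D1:**
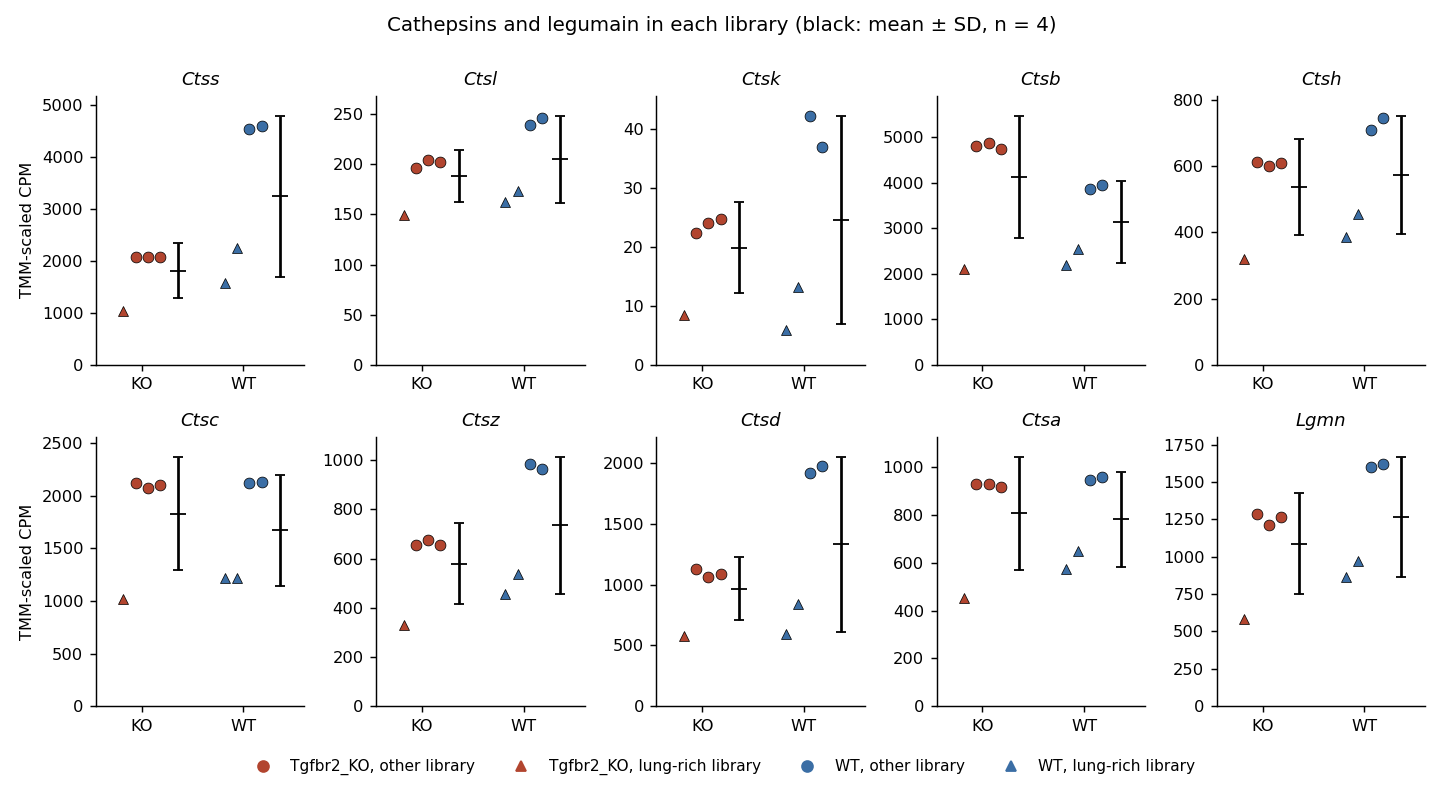
TMM-scaled CPM of each member (y axis, from 0) in the 4 Tgfbr2_KO and 4 WT libraries, with lung-rich libraries as triangles, the other libraries as circles and the mean ± SD of each group in black. KO 1 is the lowest Tgfbr2_KO library for all 10 genes, and the circles separate by genotype for all but Ctsc.

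With the library set as a term in the fit, called the set-adjusted fit below, 6 of the 10 members fell in Tgfbr2_KO (Ctss, Ctsz, Lgmn, Ctsl, Ctsd and Ctsh), 0 rose and 4 did not pass (Ctsa, Ctsb, Ctsc and Ctsk). In that fit 7.89% of all genes were called lower and 8.59% higher, and of genes with a mean of at least 100 CPM, as all members but Ctsk have, 18.8% were called lower and 8.60% higher. Within the other 5 libraries alone, 7 members fell (these 6 and Ctsk), Ctsb rose, and Ctsa and Ctsc did not pass. In these libraries 18.7% of all genes were called lower and 19.7% higher, and 32.0% and 33.7% of those at 100 CPM or more. The levels of KO 2 to 4 lay below WT 3 and WT 4 without overlap for 8 members and above them for Ctsb, where 30.2% of all genes were lower and 29.0% higher in that way. KO 1 lay below both WT 1 and WT 2 for 9 members (32.8% of all genes), with Ctsk between them. The macrophage markers also summed to less in KO 1 (6618 CPM) than in WT 1 and WT 2 (9586 and 10042 CPM). Relative to that sum in each library, KO 1 lay below both only for Ctss and Lgmn. The median log2 fold change over the members was -0.17 in the pooled fit, -0.39 in the set-adjusted fit and -0.31 in the 5 libraries, against -0.01, 0.03 and 0.00 over all genes. Over the 10 macrophage markers it was 0.03, -0.21 and -0.00 in the same fits. The 6 calls in the set-adjusted fit were reduced to 3 (Ctss, Ctsz and Lgmn) when WT 3 and WT 4, the closest pair of libraries, were summed into 1, and to 3 when either of them was left out. Ctsh also lost its call without any 1 of KO 2, KO 3 or KO 4.

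**Figure D2:**
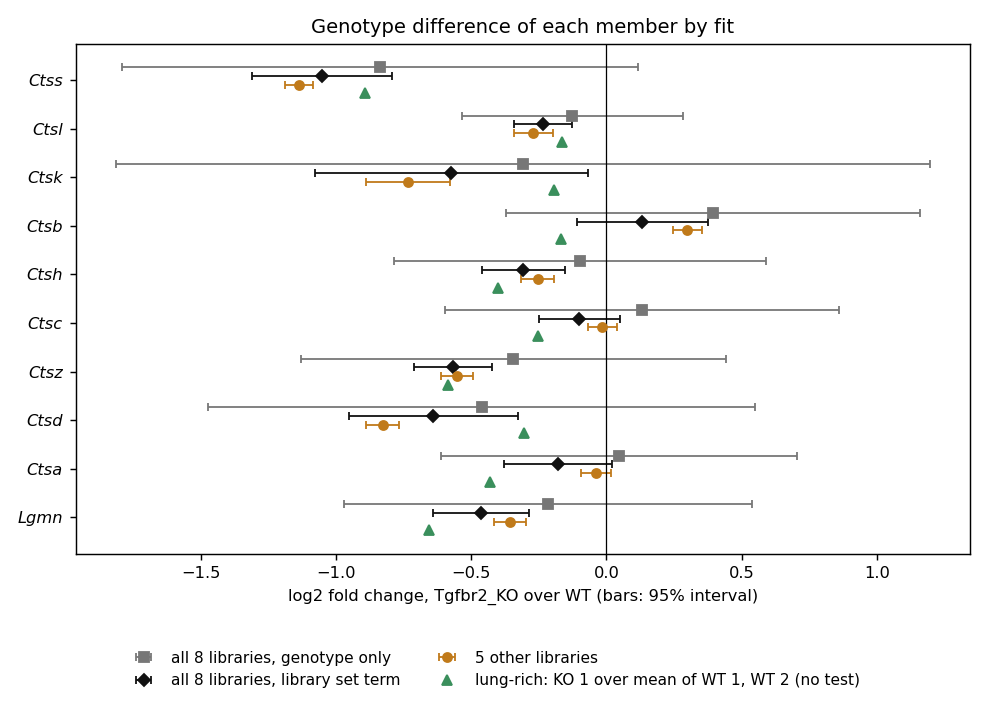
Log2 fold change of each member, Tgfbr2_KO over WT, with 95% intervals from 3 edgeR fits, and as a ratio without interval in the lung-rich libraries. Ctss lies between -1.14 and -0.84 in all 4, Ctsz between -0.59 and -0.34, and Ctsb lies above 0 in the 3 fits and at -0.17 in the lung-rich libraries.

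Among the endopeptidases of the cathepsin L type, Ctss showed the largest difference of the family. Ctss (ENSMUSG00000038642, GRCm38 chromosome 3, 95526786 to 95556403, plus strand), the gene of cathepsin S, which trims the MHC class II invariant chain, was at 1029, 2077, 2071 and 2069 CPM in KO 1 to 4, against 1579, 2240, 4535 and 4595 CPM in WT 1 to 4. KO 2 to 4 lay within a few CPM of each other, and each Tgfbr2_KO library was below the WT libraries of its own set, although KO 2, KO 3 and KO 4 were above WT 1. It averaged 1811 ± 522 CPM in Tgfbr2_KO and 3237 ± 1557 CPM in WT libraries (SD, n = 4 each), and the pooled fit put its log2 fold change at -0.84 (SE 0.41, edgeR adjusted p = 0.570), between -1.79 and 0.12 at 95%. In the set-adjusted fit it was -1.05 (SE 0.11, edgeR adjusted p = 0.00102), and it was -1.14 (SE 0.02, edgeR adjusted p = 1.38e-17) within the other 5 libraries and -0.89 as an untested ratio in the lung-rich ones. Its promoter, printed above, holds GAGGAA at its start site and no CACGTG. The processed pseudogene Hmgb1-ps5 overlaps Ctss on the same strand in the annotation and was not analysed here.

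Ctsl (ENSMUSG00000021477, chromosome 13, 64359337 to 64370890, minus strand), the gene of cathepsin L, a broad endopeptidase, differed less. It was at 150, 197, 204 and 202 CPM in KO 1 to 4, against 162, 173, 239 and 246 CPM in WT 1 to 4. The log2 fold change was -0.23 in the set-adjusted fit (SE 0.05, edgeR adjusted p = 0.0134) and -0.27 within the other 5 libraries (edgeR adjusted p = 2.99e-06), and Ctsl was the member that dropped least in the lung-rich libraries. A pseudogene and an antisense RNA overlap this gene in the annotation and were not analysed here. Ctsk (ENSMUSG00000028111, chromosome 3, 95499256 to 95509362, plus strand), neighbour of Ctss on chromosome 3 and gene of the collagen-cutting cathepsin K of osteoclasts, was the scarcest member. Its level was 8.36, 22.3, 24.1 and 24.6 CPM in KO 1 to 4, against 5.91, 13.2, 42.1 and 36.9 CPM in WT 1 to 4. KO 2 to 4 were all below WT 3 and WT 4, but KO 1 lay between WT 1 and WT 2. Ctsk passed within the other 5 libraries (log2 fold change -0.73, edgeR adjusted p = 1.59e-07) but not in the set-adjusted fit (-0.57, SE 0.22, edgeR adjusted p = 0.118), where it passed once WT 1 was left out (edgeR adjusted p = 0.00118).

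Ctsb (ENSMUSG00000021939, chromosome 14, 63122462 to 63145923, plus strand), which encodes cathepsin B, both an endopeptidase and a peptidase that removes dipeptides from the carboxyl end, was the 1 member that rose in any of the 3 fits. It was at 2111, 4796, 4873 and 4735 CPM in KO 1 to 4, against 2196, 2551, 3864 and 3954 CPM in WT 1 to 4. KO 2 to 4 stood above all WT libraries and KO 1 below all of them. The means were 4129 ± 1346 CPM in Tgfbr2_KO and 3141 ± 899 CPM in WT libraries (SD, n = 4 each), with a pooled log2 fold change of 0.39 (95% interval -0.37 to 1.16, edgeR adjusted p = 0.883). The log2 fold change was 0.30 (SE 0.03, edgeR adjusted p = 1.31e-08) within the other 5 libraries, 0.13 in the set-adjusted fit (SE 0.11, edgeR adjusted p = 0.433) and -0.17 as a ratio in the lung-rich libraries. Without KO 1 the set-adjusted fit also called it higher (0.30, edgeR adjusted p = 0.00183). Fdft1 overlaps it in the annotation on the opposite strand, and held at most 574 counts in a library, and how the counting treated strand is not stated.

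The exopeptidases, which remove residues from the ends of proteins, were split. Ctsz (ENSMUSG00000016256, chromosome 2, 174427493 to 174439039, minus strand), the gene of the carboxypeptidase cathepsin Z, was at 331, 655, 676 and 655 CPM in KO 1 to 4, against 456, 538, 985 and 962 CPM in WT 1 to 4. Each Tgfbr2_KO library lay below the WT libraries of its set, and the log2 fold change was -0.57 in the set-adjusted fit (SE 0.06, edgeR adjusted p = 0.00125), -0.55 within the other 5 libraries (edgeR adjusted p = 8.26e-12) and -0.59 in the lung-rich ones. Relative to the macrophage marker sum of each library, the lung-rich value was -0.02. Nelfcd overlaps Ctsz on the opposite strand and held 335 to 636 counts, against 7709 or more for Ctsz in each library. Ctsh (ENSMUSG00000032359, chromosome 9, 90054152 to 90076089, plus strand) encodes the aminopeptidase cathepsin H, which alveolar type 2 cells also use to process surfactant proteins. It was at 319, 614, 602 and 610 CPM in KO 1 to 4, against 387, 454, 708 and 745 CPM in WT 1 to 4, and was thus lower, not higher, in the libraries rich in type 2 cell transcripts. It fell by 0.31 on the log2 scale in the set-adjusted fit (SE 0.07, edgeR adjusted p = 0.0180) and by 0.25 within the other 5 libraries (edgeR adjusted p = 1.13e-06). Ctsc (ENSMUSG00000030560, chromosome 7, 88278085 to 88310888, plus strand) encodes cathepsin C, the dipeptidyl peptidase that activates serine proteases of granules. It was at 1022, 2123, 2073 and 2098 CPM in KO 1 to 4, against 1215, 1219, 2119 and 2129 CPM in WT 1 to 4, with overlapping genotypes within the other 5 libraries (log2 fold change -0.02, 95% interval -0.07 to 0.04, edgeR adjusted p = 0.675). In the set-adjusted fit it was -0.10 (95% interval -0.25 to 0.05, edgeR adjusted p = 0.340). A noncoding RNA gene, Gm26522, overlaps Ctsc on the opposite strand in the annotation and was not analysed here.

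Ctsd (ENSMUSG00000007891, chromosome 7, 142375911 to 142388038, minus strand), which encodes the aspartic protease cathepsin D, had the next largest difference after Ctss within the other 5 libraries. It was at 579, 1132, 1066 and 1092 CPM in KO 1 to 4, against 591, 839, 1918 and 1979 CPM in WT 1 to 4. KO 2 to 4 were below WT 3 and WT 4 and above WT 1 and WT 2, and KO 1 was only just below WT 1. The log2 fold change was -0.64 in the set-adjusted fit (SE 0.14, edgeR adjusted p = 0.0169), -0.83 within the other 5 libraries (SE 0.03, edgeR adjusted p = 2.45e-14) and -0.30 in the lung-rich ones. The overlapping gene model Gm49369 on the same strand can share reads with Ctsd, and it held 7.31, 23.6, 24.3 and 19.4 counts in KO 1 to 4 and 2.59, 7.48, 40.7 and 65.2 counts in WT 1 to 4, against 9993 or more for Ctsd in each library. Ctsa (ENSMUSG00000017760, chromosome 2, 164832873 to 164841032, plus strand) encodes cathepsin A, a carboxypeptidase that also protects the sialidase NEU1 and β-galactosidase. It was at 454, 930, 929 and 918 CPM in KO 1 to 4, against 575, 649, 945 and 959 CPM in WT 1 to 4. Its log2 fold change was -0.04 within the other 5 libraries (95% interval -0.10 to 0.02, edgeR adjusted p = 0.278) and -0.18 in the set-adjusted fit (95% interval -0.38 to 0.02, edgeR adjusted p = 0.207). Pltp, which overlaps Ctsa on the opposite strand, held 28668, 39907, 30205 and 28811 counts in KO 1 to 4 and 16349, 22072, 22608 and 40333 counts in WT 1 to 4, so the Ctsa counts are uncertain if strand was not used. The Ctsd window and the Ctsa window printed above each hold CACGTG in 2 places, and the other Ctsa window holds none.

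Lgmn (ENSMUSG00000021190, chromosome 12, 102394084 to 102439813, minus strand), the gene of legumain, which activates several cathepsins by cutting, was at 583, 1287, 1213 and 1269 CPM in KO 1 to 4, against 867, 969, 1600 and 1622 CPM in WT 1 to 4. Each Tgfbr2_KO library lay below the WT libraries of its set. The log2 fold change was -0.46 in the set-adjusted fit (SE 0.08, edgeR adjusted p = 0.00667), -0.36 within the other 5 libraries (SE 0.03, edgeR adjusted p = 6.24e-09) and -0.65 in the lung-rich ones. Relative to the macrophage marker sum of each library, the lung-rich value was -0.09.

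Some markers of other cell types also differed between genotypes within the other 5 libraries. The 10 alveolar macrophage markers summed to 136 to 157 CPM in KO 2 to 4 against 485 and 494 CPM in WT 3 and WT 4, of which Chil3, a chitinase-like protein also made by monocytes, was 15.8 to 17.6 CPM against 348 and 347 CPM. Siglecf, the defining receptor of alveolar macrophages, was at 1.43 to 2.29 CPM against 3.54 and 5.15 CPM. Of the 7 tested markers in this list, 4 fell, 1 rose and 2 did not pass. Marco rose (0.54 to 1.22 CPM against 0.205 and 0.197 CPM). Ear2 (89.8 to 106 CPM against 96.1 and 105 CPM) and Pparg (20.0 to 22.9 CPM against 23.8 and 22.4 CPM) did not pass. The 8 neutrophil markers summed to 144 to 157 CPM in KO 2 to 4 and to 212 and 219 CPM in WT 3 and WT 4. Most of each sum was Csf3r, at 105 to 119 CPM against 135 and 142 CPM. Of these 8 markers, 0 rose, 6 fell and 2 did not pass, where 19.7% of all genes rose and 18.7% fell. The 6 dendritic cell markers summed to 79.6 to 81.1 CPM in KO 2 to 4 against 47.9 and 47.8 CPM in WT 3 and WT 4. Most of this gap was Cd209a, at 29.6 to 31.7 CPM against 4.62 and 5.57 CPM. Clec9a went the other way, at 4.49 to 5.58 CPM against 14.2 and 12.4 CPM. Of these 6 markers, 3 rose, 1 fell and 2 did not pass, where 19.7% of all genes rose and 18.7% fell. The 8 monocyte markers summed to 3371 to 4067 CPM in KO 2 to 4 against 3225 and 3207 CPM in WT 3 and WT 4. F13a1 alone was at 1343 to 1404 CPM against 214 and 205 CPM. The other 7, among them Ccr2 and Chil3, summed to 2029 to 2663 CPM against 3011 and 3002 CPM. But the 7 did not move together. Of the 8 markers, 2 rose (F13a1 and Ly6c2), 2 fell (Chil3 among them) and 4 did not pass (Ccr2 among them). As above, 19.7% of all genes rose and 18.7% fell. Ly6c2 was at 41.7 to 55.2 CPM against 32.3 and 35.2 CPM. F13a1, Ly6c2, Ccr2, Csf3r, Cd209a, Clec9a, Chil3, Siglecf, Marco, Ear2 and Pparg were singled out after their values were seen. None of the markers in these lists was at 0 in every library. The part of these cells in the differences above was not tested.

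The make-up of the family differed between genotypes in a way that does not depend on library scaling. Ctsb made up 32.1%, 34.7%, 35.5% and 34.6% of the members' summed CPM in KO 1 to 4, against 27.3%, 26.4%, 22.8% and 23.0% in WT 1 to 4. Ctss made up 15.6%, 15.02%, 15.1% and 15.1% in KO 1 to 4, against 19.7%, 23.2%, 26.7% and 26.7% in WT 1 to 4. Neither share overlapped between genotypes, with the lung-rich libraries included. The ratio of Ctsb to Ctss counts was 2.05, 2.31, 2.35 and 2.29 in KO 1 to 4, against 1.39, 1.14, 0.852 and 0.860 in WT 1 to 4. Of the 45 ratios between 2 members, 18 (40.0%) did not overlap between genotypes. Of the 36 between members with at least 100 CPM, which leaves out Ctsk, 50.0% did not overlap, against 15.8% of all 2139346 ratios between genes at that level. Ctss was in 7 of the 18, on the lower side in Tgfbr2_KO each time, and Ctsb was in 5, each time on the higher side. Lgmn and Ctsz were on the lower side against Ctsa, Ctsb, Ctsc and Ctsh, and on the higher side against Ctss. Ratios with Ctsk or Ctsl overlapped in every pair. The ratios share genes and are not independent of each other.

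**Figure D3:**
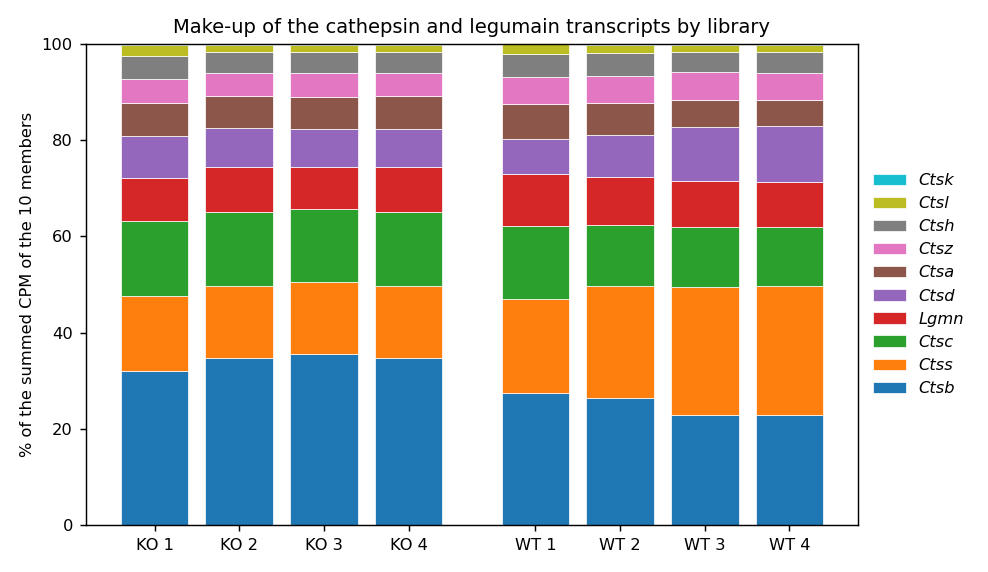
Share of each member in the summed CPM of the 10 members (stacked bars, % on the y axis from 0 to 100) in KO 1 to 4 and WT 1 to 4. Ctsb takes 32.1% to 35.5% in Tgfbr2_KO and 22.8% to 27.3% in WT libraries, and Ctss 15.02% to 15.6% and 19.7% to 26.7%.

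Since the macrophage markers summed to less in KO 1 than in WT 1 and WT 2, each member was also set against the 10 macrophage markers of its own library, a scaling chosen after the data were seen. Per 1000 counts of these markers, Ctss was at 155, 145, 149 and 148 in KO 1 to 4, against 165, 223, 333 and 333 in WT 1 to 4. Ctsb was at 319, 335, 351 and 338 in KO 1 to 4, against 229, 254, 284 and 286 in WT 1 to 4. These were the members whose genotypes did not overlap on this scale, where 3.54% of all genes were higher and 1.22% lower without overlap. Ctsz was at 50.0, 45.8, 48.6 and 46.8 in KO 1 to 4, against 47.6, 53.5, 72.3 and 69.7 in WT 1 to 4. Lgmn was at 88.1, 90.0, 87.3 and 90.7 in KO 1 to 4, against 90.5, 96.5, 117 and 118 in WT 1 to 4, and overlapped only through WT 1. Ctsd was at 87.5, 79.2, 76.7 and 78.0 in KO 1 to 4, against 61.7, 83.6, 141 and 143 in WT 1 to 4, so KO 1 was above both lung-rich WT libraries while KO 2 to 4 were below WT 3 and WT 4. The log2 ratio in the lung-rich libraries on this scale was -0.32 for Ctss, 0.40 for Ctsb and 0.27 for Ctsd. With TMM it was -0.89, -0.17 and -0.30. With this scaling in the set-adjusted fit, Ctss fell (log2 fold change -0.86, SE 0.16, edgeR adjusted p = 0.0104), Ctsb rose (0.31, SE 0.07, edgeR adjusted p = 0.0142), and the other 5 calls made with TMM were lost. Ctsz (-0.38) and Lgmn (-0.28) had edgeR adjusted p = 0.0502 and 0.0507, and Ctsd (-0.45), Ctsh (-0.13) and Ctsl (-0.05) had 0.202, 0.444 and 0.820. Within the other 5 libraries this scaling called 8 members lower, Ctsa with them (-0.08, edgeR adjusted p = 0.0484), and Ctsb higher, where 22.6% of all genes were called lower and 16.3% higher. The scaling shifted the median of all genes by 0.18 on the log2 scale in the set-adjusted fit and changed its calls to 1245 genes higher and 145 lower, against 1095 and 1006 with TMM, and those of the pooled fit to 38 and 10, against 25 and 13. In the set-adjusted fit 9.76% of all genes were thus called higher and 1.14% lower. The pooled fit on this scale called 0 members (Ctss -0.82, Ctsb 0.35, edgeR adjusted p = 0.342 and 0.274) and 0.298% of all genes higher and 0.0784% lower. Of the 10 markers themselves, 3 fell in the set-adjusted fit with TMM, Cx3cr1 (-0.95, edgeR adjusted p = 0.00145), Fcgr1 (-0.29, edgeR adjusted p = 0.0029) and Ptprc (-0.23, edgeR adjusted p = 0.0400), and 0 rose.

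**Figure D4:**
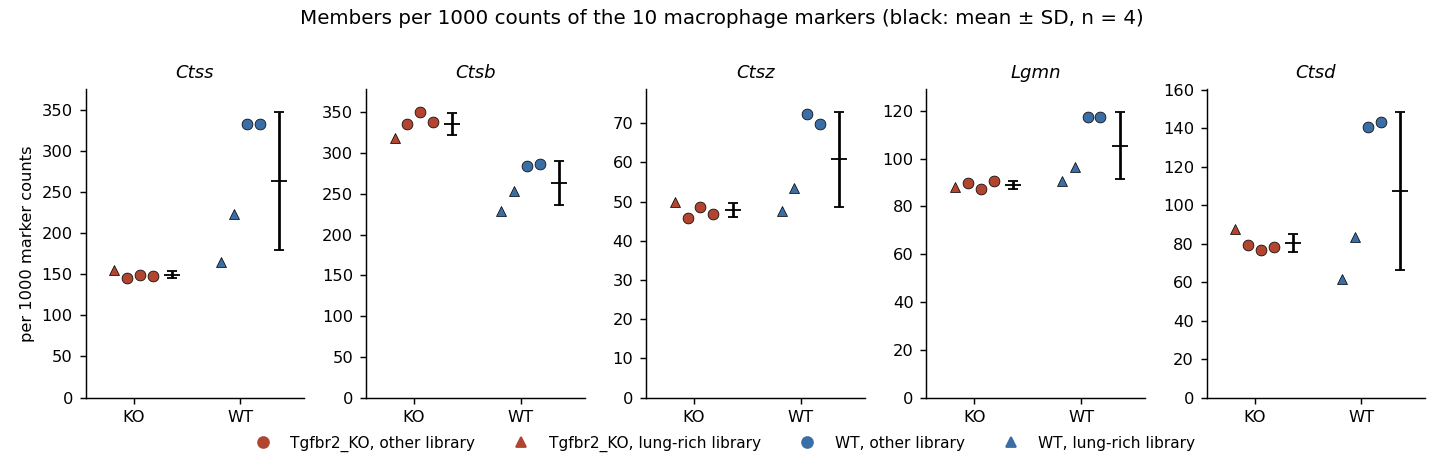
Counts of 5 members per 1000 counts of the 10 macrophage markers (y axes, from 0) in the 4 Tgfbr2_KO and 4 WT libraries, with the mean ± SD of each group in black and lung-rich libraries as triangles. Genotypes do not overlap for Ctss (145 to 155 against 165 to 333) and Ctsb (319 to 351 against 229 to 286), while the 4 Tgfbr2_KO libraries lie close together for all 5 genes.

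Whether the genotype effect differed between the library sets depended on the scaling, and the lung-rich set holds 1 Tgfbr2_KO library, which the interaction fit assumes to vary like the others. With TMM, 4 members passed the interaction test, all below 0. The log2 fold change in the lung-rich libraries minus that in the other 5 was -0.47 for Ctsb (edgeR adjusted p = 0.00674), -0.39 for Ctsa (edgeR adjusted p = 0.00836), -0.30 for Lgmn (edgeR adjusted p = 0.0320) and -0.23 for Ctsc (edgeR adjusted p = 0.0167). Of all genes, 10.1% had a smaller and 8.84% a larger fold change in the lung-rich libraries, and 30.5% and 8.46% of genes at 100 CPM or more. The median log2 ratio of the 10 macrophage markers in the lung-rich libraries was -0.54, against 0.00 within the other 5 libraries. Scaled to these markers, the same 4 members turned above 0 (0.14 for Ctsb, 0.22 for Ctsa, 0.31 for Lgmn and 0.37 for Ctsc), as did all 10 (up to 1.13 for Ctsd), and 8 passed, on a scale where 68.5% of all genes passed above 0 and their median was 0.63. For Ctss (0.25), Ctsz (-0.03), Ctsh (-0.14), Ctsl (0.11), Ctsd (0.52) and Ctsk (0.50) the TMM-scaled interaction did not pass (edgeR adjusted p = 0.197 to 0.867).

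Of 14 genes for sorting proteins to the lysosome, 4 fell in the set-adjusted fit, in which 7.89% of all genes and 18.8% of those at 100 CPM or more were called lower. These lists were made with earlier results of the data known. In this list 0 rose, 4 fell (Gnptab, M6pr, Gga2 and Scarb2) and 10 did not pass, with a median log2 fold change of -0.21 against 0.03 over all genes. Gnptab, a subunit of the enzyme that starts the mannose 6-phosphate tag, was at 55.9, 75.2, 65.9 and 68.1 CPM in KO 1 to 4, against 70.7, 70.4, 108 and 111 CPM in WT 1 to 4 (log2 fold change -0.54, SE 0.07, edgeR adjusted p = 0.0026). M6pr, the cation-dependent mannose 6-phosphate receptor, was at 282, 464, 455 and 448 CPM in KO 1 to 4, against 335, 363, 561 and 570 CPM in WT 1 to 4 (-0.31, SE 0.05, edgeR adjusted p = 0.00519). Gga2, an adaptor that loads these receptors into vesicles, had -0.42 (edgeR adjusted p = 0.00592) and Scarb2, the receptor that carries glucocerebrosidase, -0.33 (edgeR adjusted p = 0.0484). Vps35 of the retromer, which returns sorting receptors, had -0.00 (edgeR adjusted p = 0.999). In the pooled fit 0 of the 14 passed, and within the other 5 libraries 2 rose, 7 fell and 5 did not pass. There 19.7% of all genes rose and 18.7% fell (33.7% and 32.0% at 100 CPM or more).

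Of the other cathepsins and lysosomal peptidases, 9 of 12 listed genes were tested, and 0 rose and 0 fell in the set-adjusted fit (median log2 fold change 0.00). Within the other 5 libraries 6 of the 9 rose and 1 fell, where 19.7% of all genes rose and 18.7% fell (33.7% and 32.0% at 100 CPM or more). Tpp1, a tripeptidyl peptidase, was at 212, 340, 323 and 329 CPM in KO 1 to 4, against 221, 240, 288 and 288 CPM in WT 1 to 4 (0.09 in the set-adjusted fit, edgeR adjusted p = 0.458, and 0.20 within the other 5 libraries, edgeR adjusted p = 5.49e-05). Prcp, a prolyl carboxypeptidase, had -0.03 and 0.09 in the same fits (edgeR adjusted p = 0.840 and 0.0420). Ctsg was at 0 in all 8 libraries. Among cystatins and stefins, which inhibit papain-type cathepsins, 3 of 13 were tested in the set-adjusted fit and Cstb (stefin B) fell, with 66.6, 128, 132 and 131 CPM in KO 1 to 4 against 87.3, 101, 148 and 151 CPM in WT 1 to 4 (-0.30, SE 0.07, edgeR adjusted p = 0.0275). Cst3, the secreted cystatin C, did not pass in the set-adjusted fit (-0.05, edgeR adjusted p = 0.844) and rose within the other 5 libraries (0.20, edgeR adjusted p = 2.23e-05). Within the other 5 libraries 4 of the 13 were tested, of which 1 rose and 3 fell. Cystatin F, encoded by Cst7, was at 1.24 CPM at most, and 3 stefin-type genes (Csta1, Stfa2 and Cstdc6) were at 0 in all 8 libraries.

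Among partners and substrates, 1 of 7 tested genes fell in the set-adjusted fit and 0 rose, against 1 and 3 within the other 5 libraries. Over all genes in those 5 libraries, 18.7% fell and 19.7% rose (32.0% and 33.7% at 100 CPM or more). Psap, the precursor of the saposins that cathepsin D cuts, was at 3128, 6199, 6488 and 6354 CPM in KO 1 to 4, against 3459, 4850, 9132 and 9229 CPM in WT 1 to 4 (-0.49, SE 0.11, edgeR adjusted p = 0.0186). The invariant chain gene Cd74 had -0.22 (edgeR adjusted p = 0.246) and the lysosomal membrane protein gene Lamp1 -0.03 (edgeR adjusted p = 0.743). Of the TFEB family of transcription factors, which act on lysosomal genes, Mitf fell (-0.58, SE 0.08, edgeR adjusted p = 0.00311) and Tfec fell (-0.55, SE 0.16, edgeR adjusted p = 0.0487), while Tfe3 (0.11, edgeR adjusted p = 0.527) and Tfeb (-0.10, edgeR adjusted p = 0.229) did not pass. Mitf was at 26.9, 56.7, 52.0 and 53.1 CPM in KO 1 to 4, against 49.4, 44.5, 70.8 and 77.6 CPM in WT 1 to 4, and Tfec was at 19.4 CPM at most. These 2 of 4 stand beside the 7.89% of all genes called lower in that fit. Within the other 5 libraries Tfe3 rose (0.30, edgeR adjusted p = 3.43e-06), Mitf and Tfec fell and Tfeb did not pass.

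**Figure D5:**
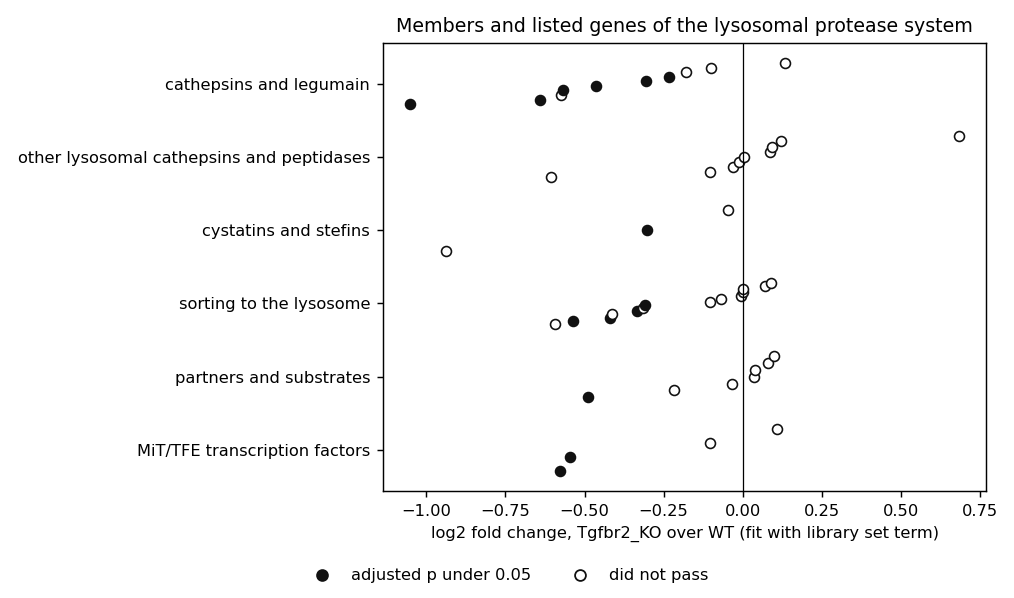
Log2 fold change, Tgfbr2_KO over WT, from the set-adjusted fit for the 10 members and the tested genes of the 5 lists (1 point a gene, filled where the edgeR adjusted p was under 0.05). Filled points all lie below 0: 6 members, 1 cystatin (Cstb), 4 sorting genes, Psap, Mitf and Tfec.

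The members did not share a single profile over the libraries. Profiles were compared by the root mean square difference of log2 CPM, each gene centred on its own mean over the 8 libraries, and are given as a description. Within the family, Ctsa and Ctsh (0.09), Ctsa and Ctsc (0.09) and Ctsz and Lgmn (0.09) were closest, and Ctsk and Ctsl (0.71) were farthest apart. Among the 3941 other genes with at least 50 CPM, Cyp4f18 (0.06) and the integrin gene Itgax (0.07) were closest to Ctss. Cd84 (0.06) was closest to Ctsz, Tbxas1 (0.04) and Aif1 (0.05) to Lgmn, and Aoah (0.04) to Ctsb. Csf2rb (0.10) was closest to Ctsd, Cyba (0.04) to Ctsh, Snx5 (0.03) to Ctsc, Zfp385a (0.03) to Ctsa, Mvp (0.02) to Ctsl and Mmp19 (0.19) to Ctsk. All these profiles share the low level of the lung-rich libraries.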

How the data were processed

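Polyadenylated RNA of sorted lung macrophages was measured in 4 Tgfbr2_KO and 4 WT libraries, by label. The authors deposited 1 table of salmon's estimated counts for all libraries, per its name, with no scaling for library size. From 81.8% to 84.8% of a library's values were whole. The submitters' processing notes name GRCm38 and DESeq2 1.40.1. Salmon's version, strand setting and annotation are not stated there.

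After rounding, edgeR 4.0.16 was run in R 4.3.3 (filterByExpr with minimum count 10 and total 15, TMM, robust quasi-likelihood test), with limma 3.58.1 and DESeq2 1.42.0 as alternatives. P-values were Benjamini-Hochberg adjusted over all genes tested, with a threshold of 0.05. Errors are SE for fold changes and SD for means, and intervals are at 95%. Fits used genotype alone, genotype with library set (set-adjusted), genotype within the other 5 libraries, and the interaction. Gene models are from GENCODE M21, whose build is the one named, and promoters from RefSeq. Named were all 10 members, of each list up to 3 genes that passed and 2 others by level, and the genes nearest in profile. Ctsf, Napsa, Ctsg, Cx3cr1, Fcgr1, Ptprc, F13a1, Ccr2, Chil3, Siglecf, Marco, Ear2, Pparg, Cd209a and Clec9a were added to these once their values were known. Ly6c2 and Csf3r were added in the same way. The members, lists and library sets were chosen with earlier results of these data known. The fits were run on simulated counts with the same dispersion for every gene and any set effect the same in each lung-rich library. Such a run checks the code and does not cover the uneven lung content of the lung-rich libraries. WT 3 and WT 4 differed by 1.87 times counting noise and were kept as 2 libraries.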

Additional observations from a re-analysis of the deposited data

Results flagged for a closer look

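In the Tgfbr2_KO group, KO 1 stood apart below KO 2 to 4 for all 10 members. Its gap to the next library, as a share of the range of the 4 libraries, was 0.976 for Ctsa, 0.95 for Ctsb, 0.955 for Ctsc, 0.88 for Ctsd, 0.959 for Ctsh, 0.858 for Ctsk, 0.862 for Ctsl, 0.992 for Ctss, 0.94 for Ctsz and 0.896 for Lgmn, each above Dixon's 95% critical value of 0.829. Chance alone puts about 1 in 20 groups beyond that value, and the 10 genes come from the same libraries. KO 1 differed from KO 2, KO 3 and KO 4 by 67.9, 62.4 and 58.8 times counting noise. How many of all genes pass the same rule was not counted, so the gap is not shown to be particular to the members. KO 1 also had the lowest macrophage marker sum (6618 CPM, against 13902 to 14305 CPM in KO 2 to 4) and the highest epithelial one (5488 CPM, against 143 to 203 CPM).

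With TMM scaling the interaction of genotype and library set passed for Ctsa (-0.391), Ctsb (-0.466), Ctsc (-0.234) and Lgmn (-0.296), given as the log2 fold change in the lung-rich minus the other libraries. Of all genes, 10.1% were called smaller in the lung-rich libraries in this way, and 30.5% of those at 100 CPM or more. Scaled to the macrophage markers, all 4 turned above 0 (0.22, 0.14, 0.37 and 0.31). The macrophage markers had a median log2 ratio of -0.54 in the lung-rich libraries and 0.00 in the 5 others. The lung-rich set rests on KO 1 alone for its Tgfbr2_KO value, so the test assumes that KO 1 varies like the other libraries.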

How the results depend on the processing

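In the pooled fit 25 genes were called higher and 13 lower with edgeR and TMM, against 53 and 28 with library totals, 347 and 180 with DESeq2, 38 higher with macrophage-marker scaling and 2493 and 2363 in the 5 other libraries. Leaving out 1 library at a time gave 0 to 619 genes higher and 0 to 241 lower, with 619 and 241 without KO 1 and 0 without any other. The members called remained 0 in each, except for 1 higher and 7 lower in the 5 other libraries. Directions that passed no test varied: Ctsa (-0.039) and Ctsc (-0.015) turned below 0 in the 5 libraries, and leaving out 1 library gave -0.076 to 0.24 for Ctsa, -0.25 to 0.085 for Ctsh and -0.63 to 0.078 for Ctsk.

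In the set-adjusted fit, limma voom called 1678 genes higher, and 1 library left out gave 307 to 2047 higher and 451 to 1946 lower. The members called were then 0 to 1 higher and 3 to 7 lower: 3 without WT 3 or WT 4, and Ctsb higher without KO 1. Summing WT 3 and WT 4 gave 318 genes higher, 491 lower and 3 members lower. Macrophage-marker scaling gave 145 genes lower and 1 member in each direction (Ctsb higher, Ctss lower), and turned Ctsa (1.05e-04) and Ctsc (0.080) above 0. In the 5 other libraries leaving out any 1 of KO 2, KO 3 or KO 4 left 1 member higher and 7 lower. WT 3 and WT 4, the only WT libraries there, differed by 1.87 times counting noise. Leaving out either leaves 1 WT library, which cannot show how far WT libraries vary. The cause of these changes was not tested.

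A replicate block called 0 genes higher and 0 lower in the pooled fit. In the set-adjusted fit it called 42 higher, 67 lower and 0 members lower (Ctss edgeR adjusted p = 0.0656, Ctsz 0.0608). Deviations of libraries with the same number correlated at 0.87, -0.79, 0.69 and 0.75 for numbers 1 to 4, not all above 0.1, and the signs follow the lung-rich split. Of the 4 libraries per group, 0 Tgfbr2_KO and 1 WT correlated best with their own number, so a pairing by number is not shown. The depth, with 3 counts at 0.0844 to 0.177 CPM, limits none of the members.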

Other observations

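Ctsf, the gene of cathepsin F, a papain-type cathepsin that can also trim the invariant chain, went the other way from Ctss within the other 5 libraries. It was picked after its values were seen. Ctsf was at 26.3, 44.3, 46.6 and 42.9 CPM in KO 1 to 4, against 36.8, 30.6, 18.3 and 19.8 CPM in WT 1 to 4. Its log2 fold change was 1.22 within the other 5 libraries (edgeR adjusted p = 4.25e-11), 0.68 in the set-adjusted fit (edgeR adjusted p = 0.166) and -0.36 as a ratio in the lung-rich ones, and the interaction of genotype and set was -1.58 (edgeR adjusted p = 6.4e-05). Napsa, an aspartic protease of alveolar type 2 cells and macrophages also picked afterwards, was at 119, 55.6, 65.8 and 60.2 CPM in KO 1 to 4, against 79.1, 85.8, 81.2 and 86.7 CPM in WT 1 to 4. It fell within the other 5 libraries (-0.48, edgeR adjusted p = 2.22e-05) and did not pass in the set-adjusted fit (-0.10, edgeR adjusted p = 0.740).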
